A study of Mus musculus with 12 samples.

Results

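Trp53, the gene of the tumor suppressor p53, was followed with 9 of its classical target genes: Cdkn1a, Mdm2, Ccng1, Bax, Bbc3, Zmat3, Phlda3, Gadd45a and Trp53inp1. The 10 genes were chosen by name as p53 and its textbook targets, with earlier results of these data known. All 10 were found among the 24062 gene symbols of the deposited count tables. In this series p53 was deleted in the transplanted tumor cells and kept in the livers. The target genes were read in both kinds of sample, which differ in more than p53. Each was taken on a complete diet and on a diet without tryptophan (Trp).

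RNA-seq libraries of 12 mice were used, 1 library per mouse and 3 mice per group. Of these, 6 were livers of MYC-ON males on the FVB background. These mice carry LAP-tTA, a transactivator that doxycycline holds inactive and that the liver activator protein promoter drives in hepatocytes, and TRE-MYC, the MYC transgene, located on the Y chromosome. Both alleles were present in all 6 mice, and doxycycline was withdrawn at birth. The paper describes the sequenced livers as bearing tumors driven by MYC. It reports fewer and smaller tumors in MYC-ON livers after 21 days on a diet without Trp. The tumor share of each liver library was not measured here. The other 6 were subcutaneous tumors in female NOD SCID hosts (spelled NOD-SKID in the labels) from HCC53N, 1 line of mouse liver cancer cells that lacks p53 and overexpresses mutant NRAS. The paper's methods name female hosts and add that repeats in males showed no difference. The paper derives HCC53N from Alb-Cre; p53 fl/fl mice, in which the albumin promoter drives Cre in hepatocytes, whereas the labels also call the cancer cells MYC-ON, and whether they carry a MYC transgene was not settled here. The host cells of a xenograft keep their own Trp53. In each model 3 mice had a control diet (livers 101, 102 and 103, xenografts 40, 41 and 43) and 3 a diet without Trp, called No-Trp (livers 105, 107 and 108, xenografts 35, 36 and 37), for 21 days. The ages of these 12 mice at harvest are not given in the labels, and model, sex, host, site and cell origin differ together between livers and xenografts, so their effects cannot be told apart. A p-value below sets a difference between groups against the spread between mice within the groups of the fit.

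Reads counted on genes ranged from 14660963 to 26085349 per library. Levels are given as CPM, counts per 1000000 reads on genes after TMM scaling over the 12 libraries, and a call needed an edgeR adjusted p no higher than 0.05 and a change of 1 or more in log2, in either direction. Hepatocyte markers (10 genes, such as Alb and Apoa1) summed to 15510 to 51250 CPM in control livers, 58950 to 143100 in No-Trp livers and 1202 to 3444 in the xenografts. Markers of dividing cells (8 genes, such as Mki67 and Top2a) summed to 1246 to 1449 CPM in control livers, 91.1 to 407 in No-Trp livers, 492 to 549 in control xenografts and 609 to 792 in No-Trp xenografts. Control liver 102 stood apart with the highest hepatocyte sum of its group (51250) and No-Trp liver 107 with the lowest cell division sum (91.1). Fibroblast and stellate cell markers (7 genes) summed to 645 to 841 CPM in the livers and 1156 to 5458 in the xenografts, those of macrophages and leukocytes (8 genes) to 235 to 487 and 521 to 838, and those of endothelial cells (6 genes) to 97.0 to 293 and 77.4 to 230 CPM. Erythroid genes (6 listed, of which 4 had reads) summed to 48.9 to 536 CPM in control livers, highest in liver 102, to 7.27 to 19.6 in No-Trp livers and to at most 4.90 in the xenografts. In bulk samples, fewer cells of a type and less RNA per cell cannot be told apart.

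**Figure D1:**
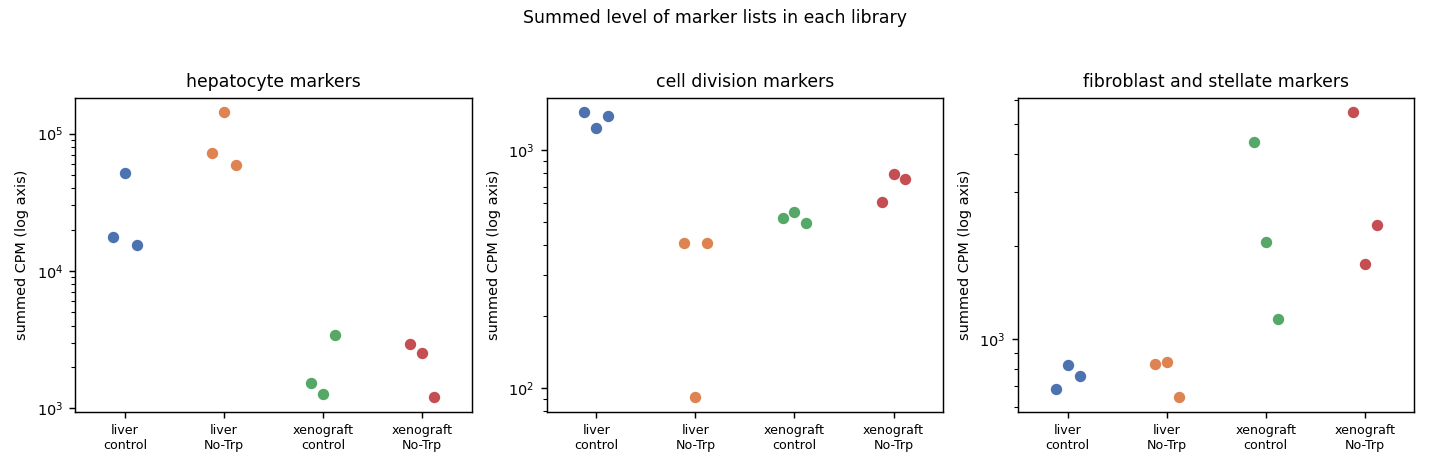
Summed CPM (log axis) of the hepatocyte, cell division and fibroblast and stellate marker lists in each of the 12 libraries, 3 points per group. The hepatocyte sum was lower in every xenograft (at most 3444 CPM) than in every liver (at least 15510 CPM), and the cell division sum was lower in every No-Trp liver (at most 407) than in every control liver (at least 1246).

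p53 is a transcription factor that stays scarce in unstressed cells because the ubiquitin ligase Mdm2 binds it and sends it to the proteasome. DNA damage and other stress free it from Mdm2, and it then turns on genes that stop the cell cycle, repair DNA or start apoptosis, as well as Mdm2 itself, which closes a feedback loop. The control acts mostly on the protein, so the mRNA of Trp53 does not report p53 activity. p53 deletion in hepatocytes favors liver cancer, and Cdkn1a is among the best known readouts of p53.

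The letters that p53 reads were looked for near the start of each member. A p53 site is a pair of decamers, each with a core of C, A or T, A or T, and G between 3 purines and 3 pyrimidines, and its complement has the same form, so both strands were covered. RefSeq windows of the GRCm38.p6 build, from 250 bases before a gene's start to 50 after it, were given for 8 of the 10 members, those other than Zmat3 and Trp53inp1. A pair of decamers with at most 2 mismatches, none at the C and G of the core, and a spacer of up to 13 bases was found in the windows of 4 members, Cdkn1a, Ccng1, Bax and Gadd45a. Of all 27025 genes with a window, 4.71% held such a pair. The best pair of each of the 4 is shown, and a second for Cdkn1a, the member with the closest match. They read along the gene's own strand, with the decamers in capitals and the spacer in lower case.
Cdkn1a, chr17:29090906-29090937, plus strand: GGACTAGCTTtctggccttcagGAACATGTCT
Cdkn1a, chr17:29090928-29090947, plus strand: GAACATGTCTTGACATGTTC
Ccng1, chr11:40755462-40755481, minus strand: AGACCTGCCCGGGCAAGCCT
Bax, chr7:45467079-45467099, minus strand: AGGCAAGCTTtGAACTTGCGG
Gadd45a, chr6:67037438-67037463, minus strand: GGACCTGGTTggctgaGGGCTAGCCC

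The first Cdkn1a pair, which begins 73 bases before the RefSeq start of its window, has 0 mismatches and a 12-base spacer. The second pair shares a decamer with it and has 1 mismatch and no spacer. Both pairs lie in the same window, and another Cdkn1a window, at chr17:29093519-29093818 around a start further downstream, held no such pair. A pair with 0 mismatches was found for 20 of the 27025 genes (0.074%). The Ccng1 pair, 195 bases before the start, has 1 mismatch and no spacer. The pairs of Bax and Gadd45a, 201 and 56 bases before the start, have 2 mismatches. A match describes the letters, and binding was not measured.

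Trp53 itself was checked first. It is located at chr11:69580359-69591873 on the plus strand of GRCm38, with 1868 exon bases. Its levels were 122, 115 and 133 CPM in control livers 101, 102 and 103, and 64.1, 46.7 and 75.6 CPM in No-Trp livers 105, 107 and 108. In the xenografts they were 17.5, 19.1 and 19.0 CPM in control tumors 41, 43 and 40, and 22.8, 17.9 and 17.9 CPM in No-Trp tumors 35, 36 and 37. Every xenograft was below every liver, and Trp53 was detected in all 6 tumors, with 314 to 628 reads. On the control diet the xenograft level was 6.65-fold lower (log2 fold change -2.73, SE 0.189, adjusted p = 2.21e-07, edgeR), and on the No-Trp diet 3.18-fold lower (log2 fold change -1.67, SE 0.182, adjusted p = 8.96e-06). The exons that the deletion removes are not given in the sources used here, so reads from a shortened Trp53 mRNA and from host cells cannot be told apart. Tumor 41 had the lowest Trp53 (17.5 CPM) with the second highest fibroblast sum (4350 CPM), while tumor 35 was highest in both (22.8 and 5458 CPM). The part of host cells in these levels was not tested.

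**Figure D2:**
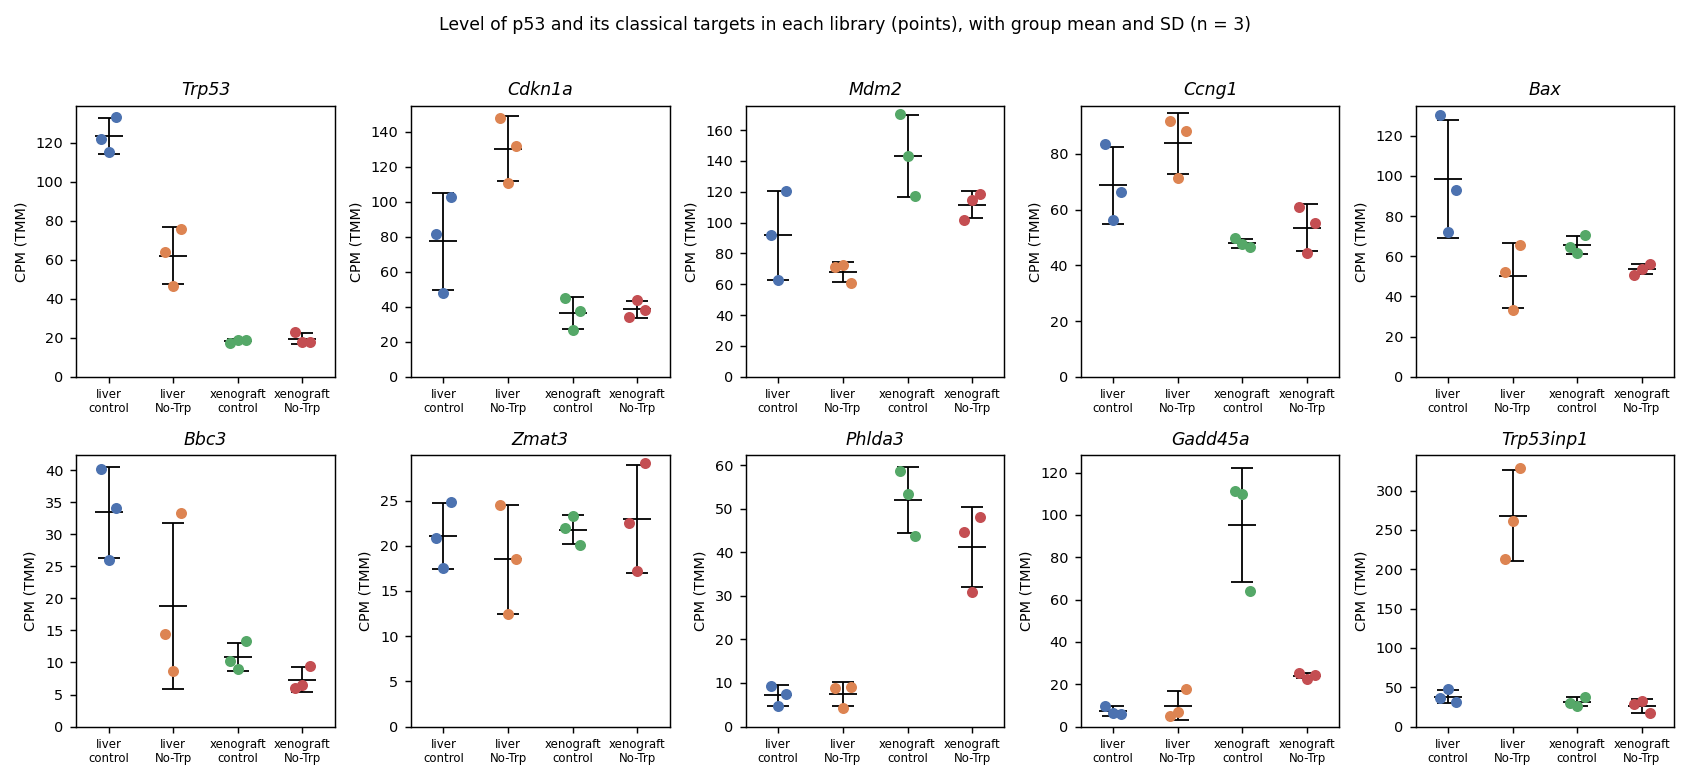
Level of each of the 10 members in CPM, 1 point per library, with the mean and SD of each group of 3 mice (4 groups per panel, axes from 0). Trp53 was lower in all xenografts than in all livers, Trp53inp1 stood at 213 to 329 CPM in the No-Trp livers against 16.7 to 47.6 elsewhere, and Gadd45a was highest in the control xenografts.

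The first question was how p53 and its targets responded to the No-Trp diet in livers that keep p53. Of the 10 members, 1 was called: Trp53inp1, which rose. For all 14122 genes tested the share called was 16.5%. The median log2 fold change of the members was -0.057, beside -0.0031 over all genes tested, with 5 members above 0 and 5 below.

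Trp53inp1 encodes a stress protein that acts in p53-driven cell cycle arrest and in autophagy. It was at 35.7, 47.6 and 30.9 CPM in control livers 101, 102 and 103, and at 213, 262 and 329 CPM in No-Trp livers 105, 107 and 108. Every No-Trp liver lay far above every control liver. The rise was 7.13-fold (log2 fold change 2.83, SE 0.245, adjusted p = 0.0067, edgeR). Without control liver 103 the log2 fold change was 2.69 and the adjusted p 0.0707; in that fit 8 genes were called in all, against 2337.

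Trp53 moved the other way. Its control and No-Trp livers did not overlap, and its mean fell from 123 ± 9.14 to 62.2 ± 14.5 CPM (SD, n = 3 each). The log2 fold change was -0.97 (SE 0.199), with an adjusted p of 0.0222 in edgeR, so it passed the adjusted p but stayed just short of the threshold on the fold change. By adjusted p alone 2 members passed, Trp53 and Trp53inp1, beside 25.3% of all genes. Trp53 passed the adjusted p in 11 of 14 alternatives and not without control liver 101, control liver 103 or No-Trp liver 105, with adjusted p-values up to 0.0905. It was called in 4 of 14: without liver 102 (log2 fold change -1.04), without liver 108 (-1.13), with upper quartile factors (-1.02) and without composition factors (-1.25), the last of which moved the median of all genes to -0.30.

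Cdkn1a encodes the p21 inhibitor of cyclin-dependent kinases, the main arm of p53-driven arrest. It was at 81.7, 47.7 and 103 CPM in control livers 101, 102 and 103, and at 148, 111 and 132 CPM in No-Trp livers 105, 107 and 108. The lowest No-Trp liver lay just above the highest control liver. The log2 fold change of 0.76 (SE 0.285) did not pass the test (adjusted p = 0.0862, edgeR). It lay between 0.47 and 1.02 over the alternatives, of which 1, the fit over all 12 libraries, gave an adjusted p of at most 0.05 (0.0467).

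The apoptosis genes Bax and Bbc3 had lower means in the No-Trp livers. Bax, whose protein opens the outer mitochondrial membrane, was at 130, 72 and 92.9 CPM in control livers 101, 102 and 103 and at 52.1, 33.2 and 65.4 CPM in No-Trp livers 105, 107 and 108. The groups did not overlap, but the test was missed (log2 fold change -0.96, SE 0.305, adjusted p = 0.0561, edgeR). Over the alternatives Bax passed the adjusted p in 5 of 14 and was called in 2, without control liver 102 (-1.15) and without composition factors (-1.20). Bbc3, the gene of the BH3-only protein Puma, was at 40.2, 26 and 34.1 CPM in control livers and at 14.4, 8.61 and 33.3 CPM in No-Trp livers 105, 107 and 108. The last of these lay within the control range, and the log2 fold change of -0.82 (SE 0.470) was not called (adjusted p = 0.226); without it Bbc3 was called at -1.52 (adjusted p = 0.0366).

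The remaining 5 members overlapped between the diets in the livers. Mdm2, the ligase that limits p53, was at 62.8 to 121 CPM on the control diet and 60.7 to 72.5 on the No-Trp diet (log2 fold change -0.41, SE 0.247). Ccng1, the gene of cyclin G1, which acts in the p53 and Mdm2 loop, was at 56.1 to 83.6 and 71.2 to 91.9 CPM. Zmat3, which encodes an RNA-binding zinc finger protein, was at 17.6 to 24.9 and 12.4 to 24.5 CPM. Phlda3, whose protein restrains Akt, and Gadd45a, a growth arrest and DNA repair gene, were low in these livers, at 4.31 to 9.36 and 4.98 to 17.6 CPM over both diets. Their adjusted p-values in edgeR ran from 0.242 for Mdm2 to 0.911 for Phlda3. Gadd45a reached 17.6 CPM in liver 108 alone, and without that mouse its log2 fold change turned from 0.43 to -0.29. Liver 108 carries a resubmission mark in the deposit, as does liver 101, the highest of the controls for Gadd45a (9.94 CPM).

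Groups without overlap were found for 4 of the 10 members (Trp53inp1 and Cdkn1a higher, Trp53 and Bax lower) and for 48.6% of all genes tested in the livers. Beside these values, all 4 erythroid genes tested and 6 of 8 cell division markers were called lower in the No-Trp livers, and 4 of 10 hepatocyte markers and 2 of 7 fibroblast and stellate markers higher. Of the latter, Dcn had a mean of 57.3 CPM in control and 212 CPM in No-Trp livers, and Pdgfra of 6.86 and 16.3 CPM. Lum, not called, also had a higher mean (12.1 and 18.8 CPM). The rest of that list had lower means without Trp: Col1a1 (188 and 152 CPM), Col1a2 (178 and 124), Col3a1 (291 and 228) and Pdgfrb (23.3 and 19.5). The summed list overlapped between the diets, at 688.7 to 824.5 and 644.6 to 841.1 CPM. The part of these marker changes in the members' levels was not tested.

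In the xenografts, whose tumor cells lack p53, 1 of the 10 members was called on the No-Trp diet, Gadd45a, which fell. Of all 14704 genes tested, 0.36% were called. The median of the members was -0.29 in log2, beside -0.0045 over all genes, with 6 members below 0 and 4 above.

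Gadd45a, located at chr6:67035096-67037457, was at 111, 110 and 63.9 CPM in control xenografts 41, 43 and 40, and at 25.1, 22.7 and 24.6 CPM in No-Trp xenografts 35, 36 and 37. Every No-Trp tumor lay below every control tumor, and tumor 40 was the lowest of the controls. The fall was 3.98-fold (log2 fold change -1.99, SE 0.225, adjusted p = 0.0137, edgeR). The 2 high tumors, 41 and 43, both carry a resubmission mark in the deposit, which no No-Trp tumor carries. With that mark as a covariate the log2 fold change was -1.42 and the adjusted p 0.0844. The call was also lost in the fit over all 12 libraries (adjusted p = 0.065) and without tumor 36 (0.0502), 37 (0.0826), 41 (0.0523) or 43 (0.0696), with log2 fold changes of -1.87 to -2.0. E230016M11Rik, a noncoding gene on the other strand, shares 238 exon bases with Gadd45a and held 13 to 72 reads per library, against 87 to 2794 for Gadd45a. The fibroblast and stellate sums of the xenografts overlapped between the diets, at 1156 to 4350 CPM on the control diet and 1753 to 5458 CPM without Trp.

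The other 9 members did not pass in the xenografts, with unadjusted p-values of at least 0.053. Trp53 (log2 fold change 0.065, SE 0.181), Cdkn1a (0.070, SE 0.206) and Zmat3 (0.066, SE 0.221) had the values nearest to 0. Cdkn1a was at 44.8, 26.9 and 37.9 CPM in control tumors 41, 43 and 40 and at 34.0, 43.7 and 38.4 CPM in No-Trp tumors 35, 36 and 37, so the groups overlapped. Trp53inp1, which rose in the livers, was at 26.2 to 37.7 CPM on the control diet and 16.7 to 32.8 on the No-Trp diet (log2 fold change -0.27, SE 0.258, adjusted p = 0.635, edgeR). Bax was at 64.5, 61.8 and 70.6 CPM in control tumors and at 50.9, 53.8 and 56.2 CPM in No-Trp tumors 35, 36 and 37. Its groups did not overlap, yet the difference was small (log2 fold change -0.30, SE 0.135, adjusted p = 0.304). Groups without overlap were found for 2 members, Gadd45a and Bax, and for 22.6% of all genes tested.

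The difference of the diet effect between the models was then tested as such. For 3 of the 10 members it was called (Trp53, Gadd45a and Trp53inp1), beside 12.7% of all 15472 genes tested. For Trp53inp1 the diet effect was lower in the xenografts by 3.07 in log2 (difference -3.07, SE 0.378, adjusted p = 0.00259, edgeR), and this call held in all 19 alternatives. For Gadd45a the difference was -2.39 (SE 0.571, adjusted p = 0.0204), and for Trp53 it was 1.07 (SE 0.253, adjusted p = 0.0192). Both missed the adjusted p without control liver 103 (0.0575 for Gadd45a and 0.0547 for Trp53). Trp53 also stayed short of the fold threshold in DESeq2 (0.99), with RLE factors (0.99) and without liver 107 (0.91) or tumor 35 (0.94). For Cdkn1a the difference of -0.67 (SE 0.369) was not called (adjusted p = 0.233), which does not show that the models respond alike.

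**Figure D3:**
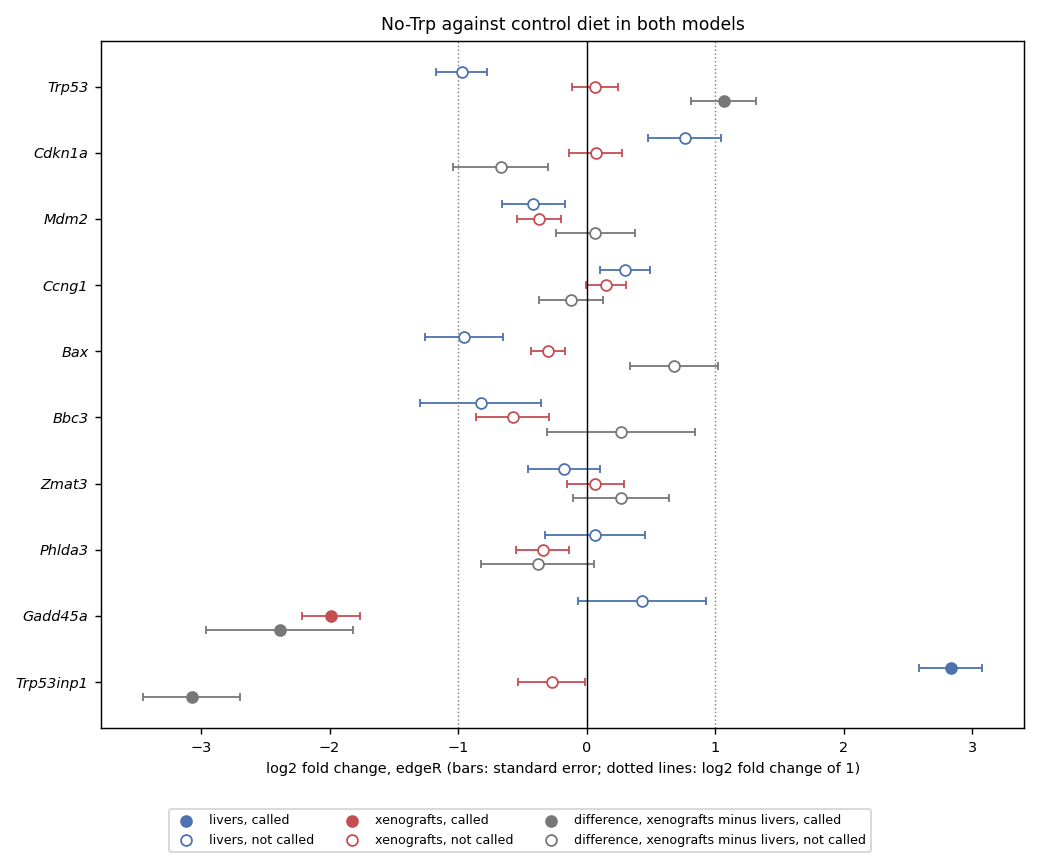
log2 fold change of each member on the No-Trp diet in livers (blue) and xenografts (red), and the difference of both effects (grey), with standard errors from edgeR; filled points were called and dotted lines mark a log2 fold change of 1. Trp53inp1 stood at 2.83 in the livers and -0.27 in the xenografts, Gadd45a at 0.43 and -1.99.

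Next, the p53-deleted xenografts were set against the p53-bearing livers on the same diet. On the control diet 5 of the 10 members were called, 3 lower (Trp53, Cdkn1a and Bbc3) and 2 higher (Phlda3 and Gadd45a). Of all 15472 genes tested 43.5% were called in this comparison, so this share was near that of the genes at large. By adjusted p alone it was 7 of 10, with Mdm2 and Ccng1 added, against 59.5%, and groups did not overlap for 7 members, against 65.1%. The median of the members was -0.40 in log2, beside 0.015 over all genes. These counts and the median include Trp53 itself, the gene deleted in the tumor cells, as do those on the No-Trp diet.

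Cdkn1a, from the p21 gene at chr17:29090976-29100727, was at 47.7 to 103 CPM in control livers and 26.9 to 44.8 CPM in control xenografts, without overlap. It was 2.12-fold lower in the xenografts (log2 fold change -1.08, SE 0.264, adjusted p = 0.00372, edgeR). The fold threshold was missed without liver 103 (-0.83), without tumor 43 (-0.90) and without composition factors (-0.95), while the adjusted p passed in all 19 alternatives. Bbc3 was at 26 to 40.2 CPM in control livers and 9.02 to 13.3 CPM in control xenografts, 3.09-fold lower (log2 fold change -1.63, SE 0.414, adjusted p = 0.00494). AC167363.2, a gene on the other strand that awaits experimental proof, shares 273 exon bases with Cdkn1a and is not a row of the count tables, so the part of its reads in Cdkn1a is unknown.

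The 2 members that were higher in the p53-deleted tumors were Phlda3 and Gadd45a. Phlda3, at chr1:135766119-135769136, was at 9.36, 4.68 and 7.51 CPM in control livers 101, 102 and 103 and at 58.6, 53.4 and 43.8 CPM in control xenografts 41, 43 and 40. It was 7.21-fold higher in the tumors (log2 fold change 2.85, SE 0.330, adjusted p = 1.48e-05, edgeR). Gadd45a was at 9.94, 6.25 and 5.83 CPM in these livers and at 63.9 to 111 CPM in these tumors, 12.9-fold higher (log2 fold change 3.69, SE 0.437, adjusted p = 2.01e-05). All 6 xenografts were above all 6 livers for both genes, and both calls held in all 19 alternatives.

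Mdm2, the feedback target, was at 91.9, 62.8 and 121 CPM in control livers 101, 102 and 103 and at 170, 143 and 117 CPM in control tumors 41, 43 and 40. Only the highest liver and the lowest tumor overlapped, and the difference of 0.64 (SE 0.217) passed the adjusted p (0.0223, edgeR) without reaching the fold threshold. Ccng1 lay lower in the tumors by 0.52 in log2 (log2 fold change -0.52, SE 0.176, adjusted p = 0.0228). Bax (-0.58, adjusted p = 0.0551), Trp53inp1 (-0.28, adjusted p = 0.379) and Zmat3 (0.044, adjusted p = 0.896) did not pass. Bax shares 192 exon bases with Gm45808, a gene on the same strand that is not a row of the count tables.

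On the No-Trp diet 6 of the 10 members were called, 4 lower (Trp53, Cdkn1a, Bbc3 and Trp53inp1) and 2 higher (Phlda3 and Gadd45a), beside 43.7% of all genes. By adjusted p alone 8 members passed, against 59.6%, and groups did not overlap for 7 members, against 66.9%. The median of all genes was 0.15 here and that of the members -0.28. Trp53inp1 was 10.2-fold lower in the xenografts (log2 fold change -3.35, SE 0.285, adjusted p = 1.1e-06, edgeR), whereas it had not been called on the control diet. Cdkn1a was at 111 to 148 CPM in No-Trp livers and 34.0 to 43.7 CPM in No-Trp tumors, 3.37-fold lower (log2 fold change -1.75, SE 0.267, adjusted p = 0.000135). Gadd45a was 2.47-fold higher (log2 fold change 1.31, SE 0.406, adjusted p = 0.015), and missed the adjusted p without liver 105 (log2 fold change 0.98, adjusted p = 0.0538) or 107 (1.08, adjusted p = 0.0664), while without liver 108 the log2 fold change was 2.03. Bbc3 (log2 fold change -1.36, adjusted p = 0.0134) overlapped between the groups through liver 108, and without that mouse the log2 fold change was -0.66 (adjusted p = 0.0957). It also missed the adjusted p without tumor 35 (-1.23, adjusted p = 0.0506) and without composition factors (-0.88, adjusted p = 0.0949). The comparisons on the 2 diets share no library, but all 12 libraries entered 1 fit.

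**Figure D4:**
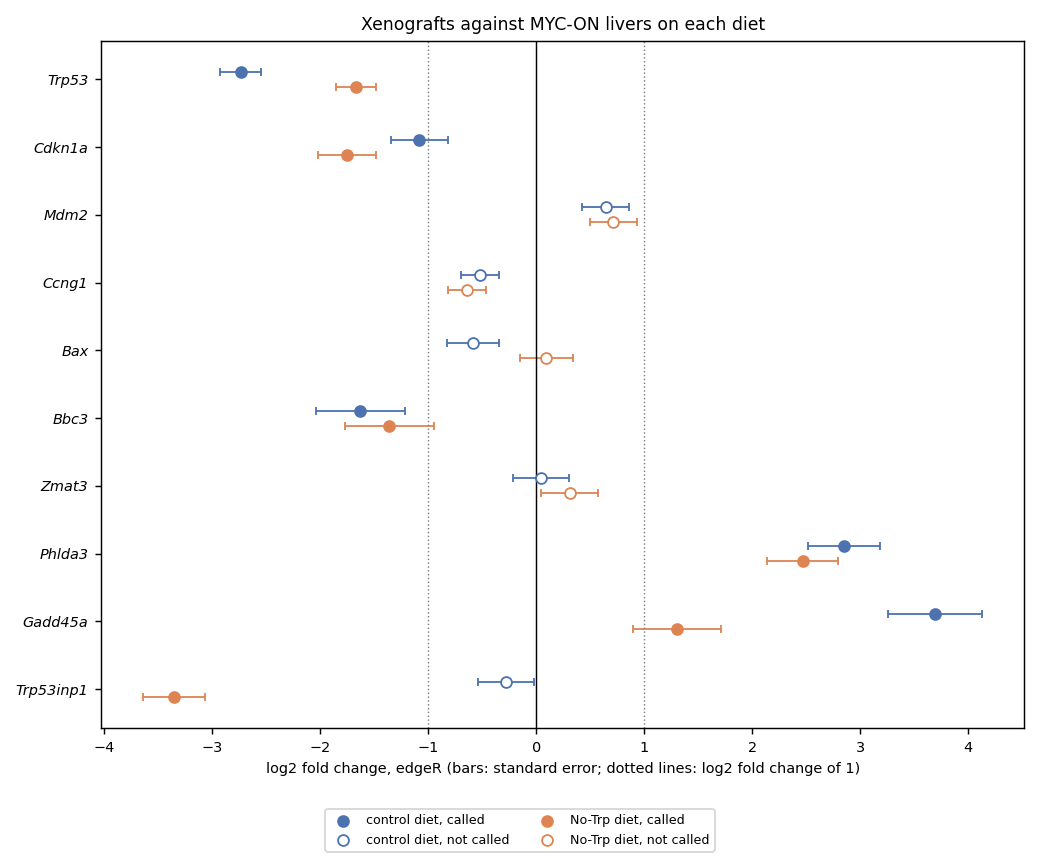
log2 fold change of each member in xenografts against livers on the control diet (blue) and the No-Trp diet (orange), with standard errors from edgeR; filled points were called and dotted lines mark a log2 fold change of 1. Trp53, Cdkn1a and Bbc3 were lower on both diets and Phlda3 and Gadd45a were higher, while Trp53inp1 was lower on the No-Trp diet (-3.35) and not called on the control diet (-0.28).

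The order of the members by level was read per kilobase of exon, since a longer mRNA gives more reads. In control livers Bax led with 73.6 ± 22 CPM per kb (SD, n = 3), and its range overlapped that of Trp53 at 66.0 ± 4.89. Mdm2 (29.2 ± 9.20), Cdkn1a (28.5 ± 10.2), Ccng1 (19.6 ± 3.95) and Bbc3 (16.6 ± 3.53) followed, each overlapping its neighbour in that order. Trp53inp1 (7.05 ± 1.59), Gadd45a, Phlda3 and Zmat3 (2.61 ± 0.452) came last. In No-Trp livers Trp53inp1 moved from place 7 to place 1, at 49.6 ± 10.7 CPM per kb, with Cdkn1a next to it at 48.0 ± 6.83 and overlapping it. In control xenografts Gadd45a led with 77.8 ± 22.1 CPM per kb, and its range overlapped that of Bax (49.1 ± 3.37). Trp53 was in place 7 of 10 in both xenograft groups, at 9.92 ± 0.496 and 10.5 ± 1.5 CPM per kb. Zmat3 was last in all 4 groups.

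Genes with the levels most like those of Trp53 over the 12 libraries included Mmachc (Pearson r = 0.993) and Igsf23 (r = 0.991), among 11668 genes with a mean of at least 100 reads, on log2 CPM. For Cdkn1a they were Fkbp5 (r = 0.934), Setdb2 (r = 0.931) and Lrrc24 (r = 0.926). The 12 points share model and diet, and how far these values follow the 4 groups was not computed. Among the members, the highest correlation over the 12 libraries was that of Phlda3 and Gadd45a (r = 0.883), and after the group means were taken out it was 0.432. That of Trp53 and Cdkn1a was 0.710, and 0.190 within groups. Other pairs were higher within groups than over all libraries, as Bax and Bbc3 (0.75 over the 12 libraries, 0.859 within groups) and Zmat3 and Phlda3 (0.493 and 0.816), and some changed sign, as Trp53 and Phlda3 (-0.883 and 0.658) and Ccng1 and Phlda3 (-0.676 and 0.900).

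A wider list of 34 further p53 targets gave the background of the pathway. In livers on the No-Trp diet 7 were called higher and 1 lower, beside 16.5% of all genes called, with a list median of -0.065 in log2, beside -0.0031 over all genes. Ephx1, the microsomal epoxide hydrolase, rose most, from 20.8, 142 and 31.8 CPM in control livers 101, 102 and 103 to 441, 550 and 659 CPM in No-Trp livers 105, 107 and 108 (log2 fold change 3.11, SE 0.732, adjusted p = 0.0294, edgeR). Plk3, a stress-responsive polo-like kinase (2.43), Ddb2, a DNA damage sensor (1.48), Sesn2, a sestrin that restrains mTORC1 (1.30), and Dglucy, the D-glutamate cyclase (1.10), rose as well, each with an adjusted p of at most 0.0396. Polh, a polymerase that copies past DNA lesions, fell by 1.15 in log2 (log2 fold change -1.15, adjusted p = 0.0196). Gls2, the liver glutaminase (1.03), and Susd6 (1.03) completed the 7. These calls depended on single mice: without control liver 101 or 103, Ephx1, Plk3, Ddb2, Sesn2, Dglucy and Polh all missed the adjusted p. Those fits called 294 and 8 genes in all, against 2337. Ephx1, Ddb2 and Dglucy also missed the adjusted p without No-Trp liver 105, 107 or 108 (0.0565 to 0.102, edgeR). The fit without liver 108 called 2143 genes in all. Polh also missed the adjusted p without liver 105 (0.0543) and Plk3 without liver 107 (0.0613). With 1 mouse left out Ephx1, Plk3, Ddb2, Sesn2, Dglucy and Polh kept their direction, for example Sesn2 at 1.18 to 1.43, Plk3 at 2.20 to 2.88 and Polh at -1.25 to -1.09 in log2. The count of further targets called over the fits with 1 mouse left out ran from 0 to 9, against 8.

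Of 17 regulators of p53, 16 were tested, and 2 were called in these livers, both lower, a share below the 16.5% of all genes. Chek1, a checkpoint kinase that phosphorylates p53, was at 34.6, 30.4 and 34.9 CPM in control livers 101, 102 and 103 and at 10.4, 4.8 and 13.5 CPM in No-Trp livers 105, 107 and 108 (log2 fold change -1.79, SE 0.357, adjusted p = 0.0216, edgeR). Chek2, the other checkpoint kinase, fell by 1.43 in log2 (log2 fold change -1.43, adjusted p = 0.0182). Both groups were apart from each other for both genes, and both calls were lost without liver 101, 103 or 105 (adjusted p of 0.0523 to 0.0884). Those fits called 294, 8 and 368 genes in all, against 2337. The lowest Chek1 level was that of liver 107, which also had the lowest cell division sum (91.1 CPM), and the link between them was not tested. Mdm4, the partner of Mdm2 (log2 fold change -0.18, adjusted p = 0.676), and Wrap53, the antisense neighbour of Trp53 (-0.39, adjusted p = 0.193), were not called. In the xenografts their diet effects were -0.073 and -0.027 (adjusted p = 0.854 and 0.963, edgeR). Between the models on the control diet Mdm4 lay lower in the xenografts by 0.69 in log2 (log2 fold change -0.69, adjusted p = 0.0318), short of the fold threshold, and Wrap53 did not pass (-0.28, adjusted p = 0.221). The Mdm4 groups overlapped, at 25.75 to 57.08 CPM in control livers and 24.62 to 26.49 CPM in control tumors. Mdm4 passed the adjusted p in 13 of 19 alternatives, with values up to 0.177.

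In the xenografts none of the 34 further targets and none of the 16 regulators was called by edgeR on the No-Trp diet. At an unadjusted p under 0.05 there were 9 further targets and 2 regulators, beside 2483 of all 14704 genes. DESeq2 called 3 further targets, Sesn2 and Dram1 higher and Ak1 lower, and 0 regulators. Sesn2 was at 8.96 to 10.7 CPM in control tumors 40, 41 and 43 and at 16.7, 26 and 21.0 CPM in No-Trp tumors 35, 36 and 37, so the groups did not overlap, but the log2 fold change of 1.09 (SE 0.224) did not pass (adjusted p = 0.0778, edgeR). The difference of the diet effect between the models was called for 5 further targets and 3 regulators, beside 12.7% of all genes. Chek1 (2.28), Dram1, a lysosomal autophagy gene (2.08), Chek2 (1.70) and Polh (1.69) had the higher effect in xenografts. Plk3 (-2.34), Gls2 (-1.62), Cdkn2a (-1.28) and Susd6 (-1.22) had the lower one, with edgeR adjusted p-values of these 8 genes from 0.00789 to 0.0332. The call held in 12 of 19 alternatives for Dram1 and in 9 of 19 for Susd6, and without control liver 103 the further targets called fell to 1. For Cdkn2a it held in 17 of 19. It was lost without composition factors (-0.895, adjusted p = 0.0531, edgeR) and without control liver 103 (-1.22, adjusted p = 0.0607). For Dram1 and Cdkn2a the diet effect passed the adjusted p in neither model.

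Cdkn2a stood out between the models. It encodes p16Ink4a and, from another reading frame, p19Arf, which holds Mdm2 away from p53, and the counts do not separate the transcripts. It was at 4.92, 2.87 and 3.47 CPM in control livers 101, 102 and 103 and at 515, 674 and 705 CPM in control xenografts 41, 43 and 40. This was a 168-fold difference (log2 fold change 7.39, SE 0.279, adjusted p = 4.7e-09, edgeR). In No-Trp xenografts 35, 36 and 37 it was at 343, 443 and 409 CPM, below all control xenografts, although that diet difference was not called (log2 fold change -0.68, SE 0.177, adjusted p = 0.132). On the No-Trp diet it was 69.2-fold higher in xenografts than in livers (log2 fold change 6.11, adjusted p = 1.11e-08).

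Between the models on the control diet 8 further targets were called higher and 12 lower, beside 43.5% of all genes called, with a median of -0.47 in log2. Ak1, an adenylate kinase (3.73), Plk2 (1.81), Apaf1 of the apoptosome (1.77) and the polymerase Polk (1.73) were higher in the xenografts. Psrc1 (-4.20), Gls2 (-2.76), the mitochondrial Fdxr (-2.20) and the death receptor Fas (-2.08) were lower, as was the regulator Chek1 (-1.67); edgeR's adjusted p-values of these 9 genes were at most 0.00397. Of the 16 regulators 3 were called higher and 2 lower, a share below that of all genes. Without Trp in the diet, 8 further targets were called higher and 10 lower, beside 43.7% of all genes called, with a median of -0.37, beside 0.15 over all genes. Ak1 (3.17), the death receptor Tnfrsf10b (2.85), Plk2 (2.26) and Apaf1 (2.11) led the higher ones, and Gls2 (-4.39), Ephx1 (-3.42), Fdxr (-2.76), Ei24 (-2.62) and Plk3 (-2.27) the lower ones, all with an adjusted p of at most 0.00101. Of the regulators 3 were called higher and 1 lower, again a share below that of all genes, and without composition factors 9 were called. Gls2 and Ephx1 are expressed in hepatocytes, and all 10 hepatocyte markers were called lower in the xenografts on both diets. Of 7 fibroblast and stellate markers 5 were called higher on both diets, and of 8 cell division markers 6 were called lower on the control diet and 6 higher on the other. The part of these cell types in the values was not tested.

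**Figure D5:**
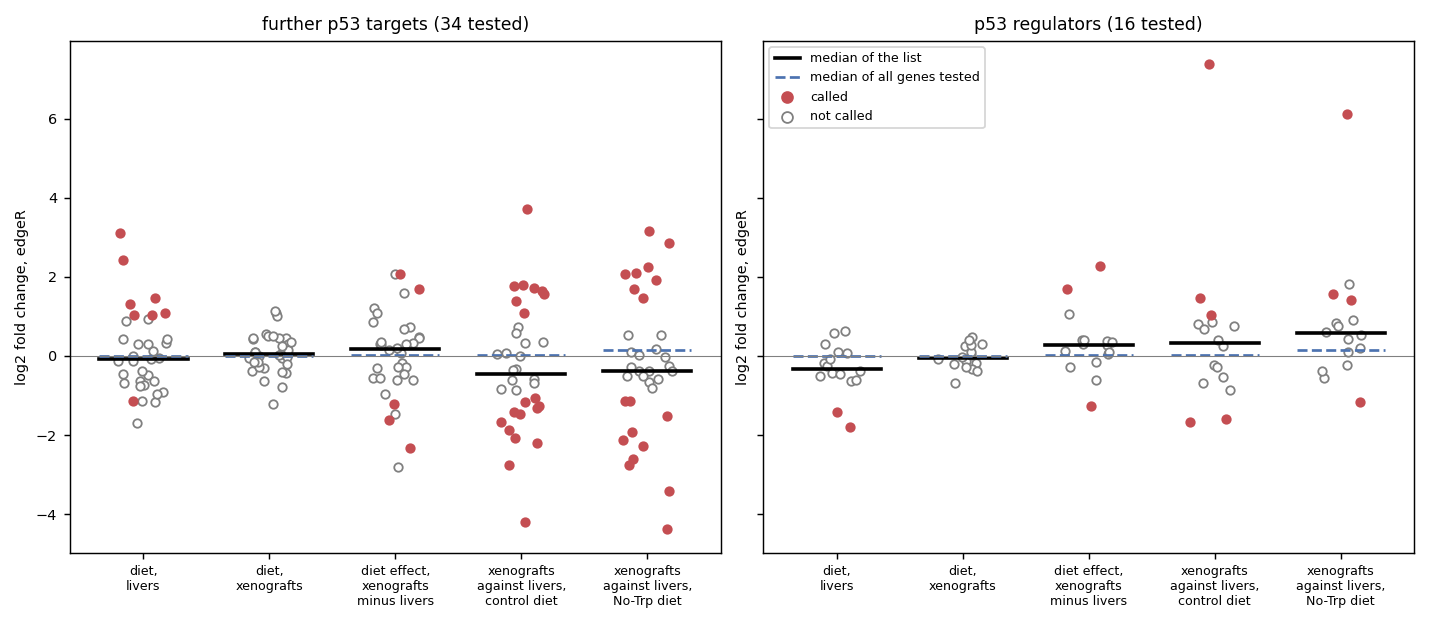
log2 fold change of the 34 further p53 targets (left) and the 16 tested p53 regulators (right) in the 5 comparisons; red points were called, the black line is the median of the list and the dashed line that of all genes tested. In the diet comparison of the xenografts no point is red, and the point at 7.39 on the right is Cdkn2a on the control diet.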

How the data were processed

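RNA-seq libraries of 6 MYC-ON livers and 6 HCC53N xenografts were used, 1 per mouse, and grouped by the model and diet in the labels. The deposited values are raw read counts per gene symbol, made by the authors with Trim Galore, STAR 2.7.2b, SAMtools 1.9 and HTSeq on the mouse mm10 build per the labels and the submitters' processing notes, with no normalization. Whether counting used strand is not given in the sources used here, so reads of overlapping genes on opposite strands cannot be told apart. Between 24.7% and 39.4% of the reads in a table fell on no gene or on several and stayed out of totals and tests. Libraries of 1 group differed far beyond sampling noise (chi-square per degree of freedom of 34.6 or more), so no 2 libraries of a group were taken for 1 library; pairs across groups were not compared. In the deposit, 4 libraries (livers 101 and 108, xenografts 41 and 43) carry a resubmission mark, and what was resubmitted is not stated.

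Counts were tested under R 4.3.3 by the robust quasi-likelihood F test of edgeR 4.0.16 (2-sided, after filterByExpr and with TMM factors), with Benjamini-Hochberg adjustment over all genes tested. The diet was tested within each model on its 6 libraries. Its difference between the models, and the models on each diet, were tested in 1 fit over 12 libraries. The standard error is the log2 fold change divided by the square root of F. A call needed an adjusted p no higher than 0.05 and a change of 1 or more in log2, the thresholds of the study, whose own tool, DESeq2 (1.42.0 here), was run as an alternative. CPM per kb used the exon bases of GENCODE M21 protein-coding transcripts. Alternatives were RLE, upper quartile or no factors, no filter or at least 10 counts in every library, the resubmission mark as a covariate, 1 fit over 12 libraries, no fold threshold, and each mouse left out.

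The 10 members and the lists of further targets, regulators and markers were chosen with earlier results of these data known. Named were all members, Mdm4, Cdkn2a and Wrap53, and in each comparison, over the 2 wider lists, up to 5 called genes each with the largest rise and fall (mean normalized count 100 or more in the group where they were higher), and the 3 genes closest to Trp53 and to Cdkn1a in Pearson correlation. Of those closest to Trp53, 1 is not reported here. Gls2 and Susd6 in the livers and Sesn2, Dram1 and Ak1 in the xenografts fell outside this rule and were named after their values were seen. Site searches used RefSeq windows, as a whole genome was not used here.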

Additional observations from a re-analysis of the deposited data

Results flagged for a closer look

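The diet effect differed between xenografts and livers, by edgeR's test of that difference, for 3 members and 8 genes of the wider lists; values are the xenograft effect minus the liver effect in log2. Among the members these were Trp53 (1.07), Gadd45a (-2.39) and Trp53inp1 (-3.07). For Trp53inp1 the liver rose and the xenograft did not pass, and for Gadd45a the xenograft fell and the liver did not pass. Among the further targets they were Dram1 (2.08), Polh (1.69), Plk3 (-2.34), Gls2 (-1.62) and Susd6 (-1.22), and among the regulators Chek1 (2.28), Chek2 (1.70) and Cdkn2a (-1.28). For Dram1 and Cdkn2a the diet effect passed the adjusted p in neither model. Of all genes tested, 12.7% were called in the same test. The sums of the hepatocyte and cell division markers moved with the diet in the livers, where 6 of 8 division markers were called lower, and the part of that shift in these values was not tested.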

How the results depend on the processing

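No paired analysis was possible because the groups share no animal and no replicate number. Over the alternatives, 797 of 850 log2 fold changes of members kept their direction and their side of the call, 21 lost a call, 8 gained one and 24 changed sign, all of the last at values that were not called. With 1 mouse left out, the number of members called ran from 0 to 3 for the diet in livers (0 without control 103, 3 without control 102 or No-Trp 108), 0 to 1 for the diet in xenografts, 1 to 3 for the difference between them (1 without control liver 103), 4 to 5 between the models with the control diet and 5 to 6 with the No-Trp diet. All genes called in the livers then ran from 8 to 3207, in the xenografts from 9 (without control 43) to 78 (without control 40) and for the difference from 916 (without control liver 103) to 2571, and the count of further targets called for the difference from 1 (without control liver 103) to 7, against 5. For the diet in livers, 3 members were called without composition factors, 2 with upper quartile factors and 2 by adjusted p alone. For the diet in xenografts, 0 were called with the resubmission mark as a covariate and 0 in the fit over 12 libraries. Scaling mattered most where composition factors were left out: the median of all genes moved to -0.30 in livers, 0.11 in xenografts, 0.41 for the difference, 0.17 between models with the control diet and 0.68 with the No-Trp diet, and the calls higher and lower went from 1311 and 1026 to 732 and 1532 in livers, from 36 and 17 to 60 and 11 in xenografts, from 1036 and 930 to 1825 and 437 for the difference, and from 3796 and 2959 to 5797 and 2024 between models on the No-Trp diet. In that setting the sign changed for Phlda3 in livers (-0.18), Mdm4 (0.038) and Wrap53 (0.082) in xenografts and Ccng1 in the difference (0.23), and the further targets called were 4 in livers and 8 for the difference, and the regulators called between models with the No-Trp diet 9, against 4. Wrap53 in xenografts also changed sign with upper quartile factors (0.028), and Ccng1 in the difference with the covariate (0.0051). With DESeq2 and RLE factors the sign changed for Mdm2 in the difference (-0.019 and -0.020), Bax between models on the No-Trp diet (-0.0035 and -0.0050) and Wrap53 there (-0.0036 and -0.0027), and the further targets called for the difference were 9 and 8, against 5. The values that changed sign with 1 mouse left out ran as follows. In livers Zmat3 ran from -0.43 to 0.032, Phlda3 from -0.18 to 0.34, Gadd45a from -0.29 to 0.75 and Mdm4 from -0.44 to 0.12. In xenografts Trp53 ran from -0.043 to 0.13, Cdkn1a from -0.11 to 0.24, Zmat3 from -0.14 to 0.24, Mdm4 from -0.15 to 0.026 and Wrap53 from -0.12 to 0.021. For the difference Mdm2 ran from -0.18 to 0.29, Ccng1 from -0.29 to 0.010, Bbc3 from -0.068 to 0.97 and Mdm4 from -0.17 to 0.39. Between models Zmat3 ran from -0.11 to 0.18 with the control diet and Bax from -0.16 to 0.33 on the No-Trp diet. The cause was not tested for any of these.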
